A study of Rattus norvegicus with 2 samples.

Results

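The receptors for GABA and glutamate were examined in the hypothalamus of Wistar Kyoto (WKY) rats, a normotensive inbred strain. Their subunit genes were chosen by name, as all non-control spots whose gene name is that of a GABA-A, GABA-B, AMPA, kainate, delta, NMDA or metabotropic glutamate receptor subunit. The set was chosen with earlier results of these data known, but the naming rule itself used no measured value. It gave 47 genes on 59 probes and 95 spots, of 26334 gene names and 42877 non-control spots on the array. Of the 47 genes, 21 encode GABA receptor subunits and 26 glutamate receptor subunits.

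The tissue was the hypothalamus of female and male WKY rats aged 9 weeks, with no treatment given in the labels. Equal amounts of RNA, 100 ng per rat, from 5 females were pooled into 1 sample and from 5 males into another, and 150 ng of each pool was amplified, labelled with the dye Cy3 and hybridised to 1 Agilent 1-colour array. Pooling left no measure of the spread between rats and 1 array per sex left no replicate, so the pools are compared without a test. In a bulk extract, fewer cells of a type and less RNA per cell cannot be told apart.

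GABA is the main inhibitory and glutamate the main excitatory fast transmitter of the brain, and both act on the neuroendocrine neurons of the hypothalamus. GABA-A receptors are chloride channels assembled from alpha and beta subunits with a gamma, delta, epsilon or theta subunit, and GABA-B receptors are heterodimers coupled to G proteins. AMPA, kainate and NMDA receptors are glutamate-gated cation channels assembled from 4 subunits, and metabotropic glutamate receptors signal through G proteins. Which subunits are present sets the conductance, kinetics, location and drug sensitivity of such a receptor.

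A level below is log2 of the processed intensity of a spot relative to the 75th percentile of the non-control spots of its array, so 0 is the 75th percentile. The female array had a 75th percentile of 2943 and 84.2% of its spots well above background, and the male array, of the same slide and scan, 3769 and 84.9%. A difference is female minus male on the log2 scale. Its technical SD came from the scatter of repeated spots of a probe on this slide and leaves out labelling, hybridisation, pooling and the rats. It is that of the mean over the spots and probes of a gene, so it shrinks with their number. An earlier look at these data had found 3 bands of slide rows rich in deviating spots, and a gene measured on 1 spot in those rows is marked (band). Of the 41 subunit genes measured in both pools, 28 rested on 1 spot and 10 of these spots lay in the bands. Probes differ in sensitivity, so the level of one subunit says nothing of its abundance against another.

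The dissected tissue carried its defining markers. All 12 listed hypothalamic genes were detected, well above background on each array, among them Pmch, which encodes melanin-concentrating hormone, at 6.42 in the female and 6.32 in the male pool, and Oxt, which encodes oxytocin, at 5.34 in the female and 5.21 in the male pool. Avp, which encodes vasopressin, was at 5.27 in the female and 5.54 in the male pool, and 7 of the 12 were below 0, with a median difference of -0.10 log2. Of the cortical and hippocampal markers, Tbr1 was not measured and Slc17a7, a vesicular glutamate transporter gene of cortical neurons, was at -6.99 in the female and -6.71 in the male pool.

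Of the 47 genes, 41 were well above background on both arrays, 1 on the male array only and 5 on neither. All 26 glutamate receptor genes were measured in both pools, against 15 of 21 GABA receptor genes. The differences of the 41 genes ran from -0.26 for Grin2d to 0.59 for Grin2a. The smaller size counted was 0.32 log2, which is 25% more signal in the higher pool. Of the 41 members, 5 were higher by at least that in the female pool, as were 6.17% of all 20664 genes measured in both pools. They were Grin2a, Gabrg1, Gabra4, Gria4 and Gria1. In the other direction 0 members were lower by at least that, as were 3.06% of all genes. Grin2a alone reached 1.5-fold, with 1.56% of all genes past that size, and lay just past it, at 0.585 log2. It was under that size with normexp, quantile, spike-in, median and loess scaling, and not measured without the bands. As scaled here, 0 members were 1.5-fold lower, with 0.842% of all genes. A 2-fold size was reached by 0 members in either direction, with 0.508% of all genes higher and 0.339% lower. When the arrays were scaled on the spike-in controls, 2 members and 3.91% of all genes were at least 0.32 log2 higher, and 1 member and 5.44% of all genes lower.

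The median difference of the 41 members was 0.071 log2, beside 0.00012 over all genes, but it was -0.014 when the arrays were scaled on the spike-in controls. Of the 41 members 32 were above 0, or 78%, beside 50% of all genes, and 19 were with spike-in scaling. That scaling adds -0.085 log2 to every difference, so values and medians between 0 and 0.085 log2 change sign under it. The 24 members with no spot in the bands had a median of 0.086 log2, and 20 of them were above 0. Of these 24, 1 or 4.17% was higher by at least 0.32 log2, near the 5.28% of the 14878 genes measured with the bands left out. Of the 17 members with a spot in the bands, 4 or 23.5% were, but no share of all genes with such spots is at hand to set beside it. A difference of over 2 technical SD was found for 11 members on the female side, where 15.2% of all genes passed that size, and for 1 on the male side, where 13.3% of all genes did. That rule counts only error within the slide.

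**Figure D1:**
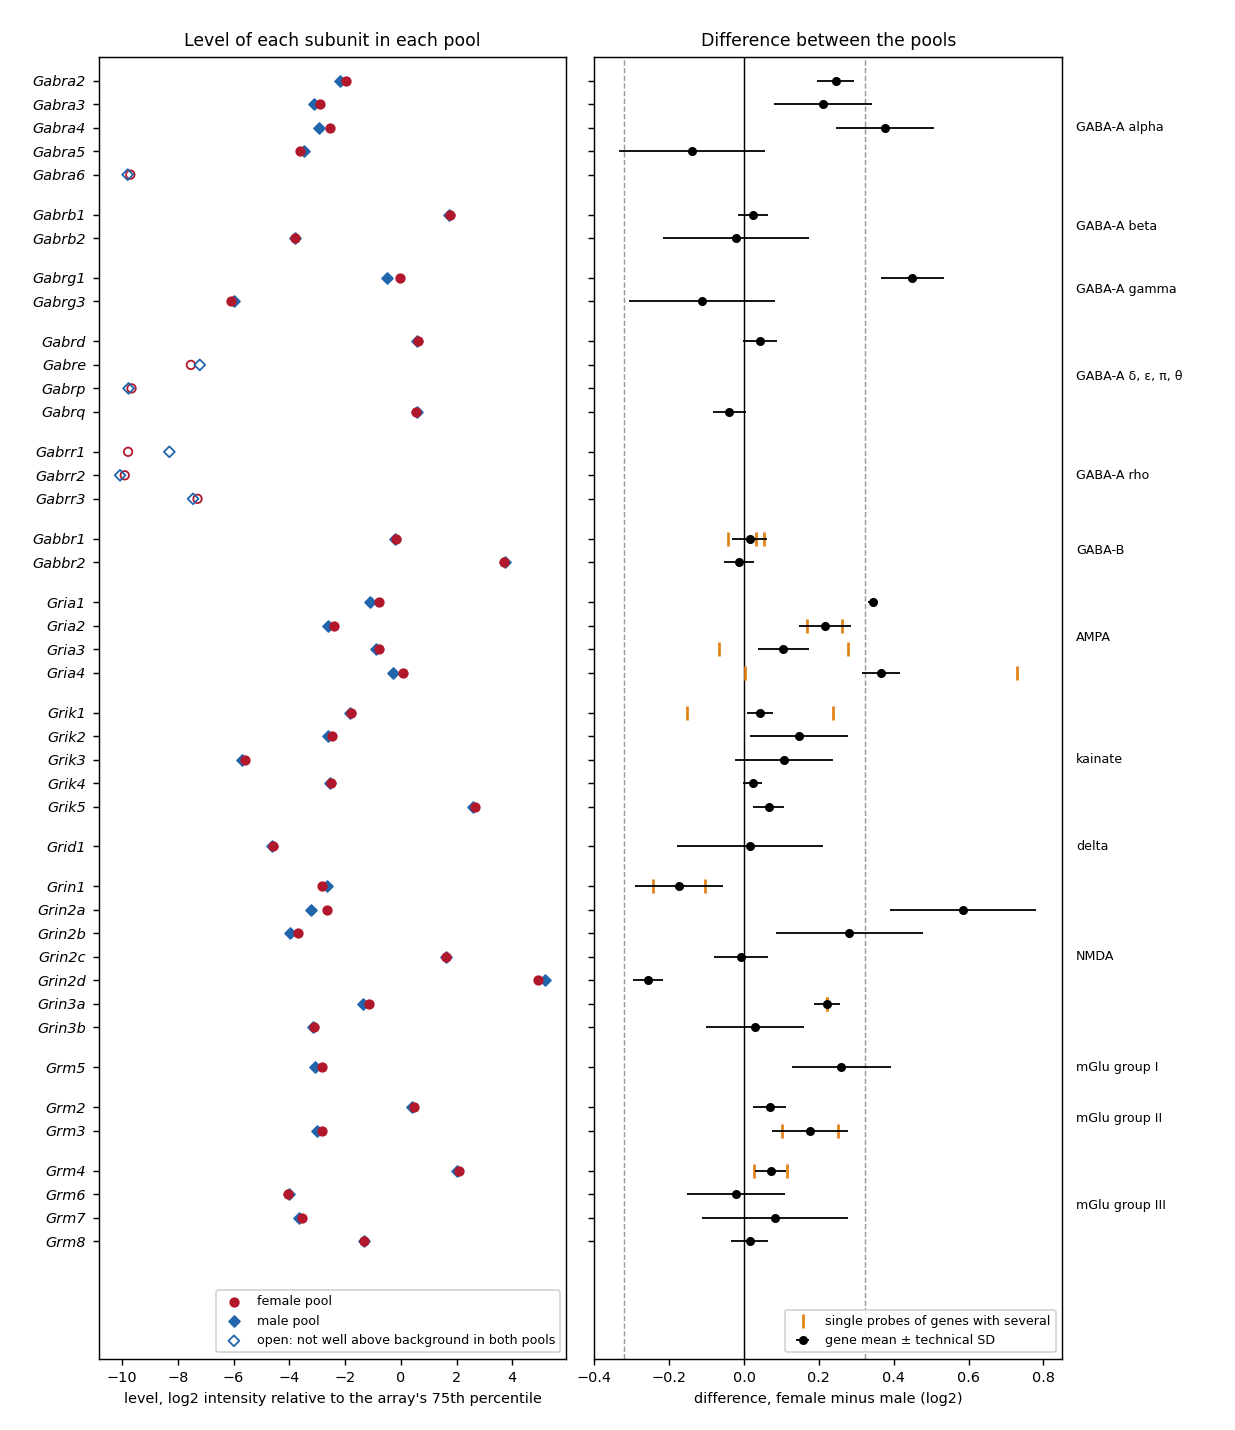
Left, level of 42 of the 47 subunit genes in the female pool (circles) and the male pool (diamonds), in log2 units relative to the 75th percentile of the array, with open symbols for genes not well above background in both pools. Right, difference, female minus male, of 36 of the 41 genes measured in both pools with its technical SD, dashed lines at 0.32 log2 and ticks for single probes. The points on the right sit mostly between -0.26 and 0.38, and Grin2a, Gabrg1, Gabra4, Gria4 and Gria1 lie past the right dashed line.

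The GABA-A subunits are encoded largely in clusters, one of them on chromosome 14. The alpha subunits, which with beta form the GABA site and set the response to benzodiazepines, had a median of 0.21 log2 over the 5 measured genes. Gabra4, which encodes a subunit of extrasynaptic receptors of the thalamus and other regions, was at -2.55 in the female and -2.93 in the male pool, a difference of 0.38 log2 with a technical SD of 0.13, or 1.30-fold. With spike-in scaling it was 0.29 log2, below the smaller size counted. Gabra2 was at -1.95 in the female and -2.20 in the male pool, a difference of 0.24 log2 with a technical SD of 0.050. Gabra3 was at -2.90 in the female and -3.11 in the male pool. Gabra5 (band), an extrasynaptic subunit best known from the hippocampus, was at -3.62 in the female and -3.48 in the male pool.

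The gamma subunits place receptors at synapses and form the benzodiazepine site with alpha. Gabrg1 (band) was at -0.03 in the female and -0.48 in the male pool, a difference of 0.45 log2 with a technical SD of 0.084, or 1.37-fold. With spike-in scaling, its lowest value, it was 0.36 log2. It rests on 1 spot, which several alternatives could not change and which was lost when the bands were left out. Gabrg3 (band) was at -6.10 in the female and -5.99 in the male pool. The beta subunits Gabrb1 and Gabrb2 (band), which help to form the GABA site, differed by 0.023 and -0.021 log2. Gabrb1 was at 1.76 in the female and 1.74 in the male pool, and Gabrb2 at -3.80 in the female and -3.78 in the male pool.

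On the rn4 build, the cluster on chromosome 14, from 38530433 to 39951158, held Gabrg1, Gabra2 and Gabra4, with differences of 0.45, 0.24 and 0.38 log2, and also Gabrb1, with 0.023. The probes of the 2 genes of the chromosome 14 cluster past 0.32 log2 are given here.
Gabrg1 A_43_P13076, at chr14:39951099-39951158 (rn4, plus strand): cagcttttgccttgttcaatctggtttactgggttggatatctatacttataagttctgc
Gabra4 A_43_P15434, at chr14:39122375-39122434 (rn4, plus strand): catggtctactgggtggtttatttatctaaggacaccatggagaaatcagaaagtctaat

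The remaining GABA receptor genes were close in both pools or not well above background. Gabrd, which encodes the delta subunit of extrasynaptic, neurosteroid-sensitive receptors, was at 0.61 in the female and 0.56 in the male pool. Gabrq, on chromosome X, encodes the theta subunit known from the hypothalamus and brain stem, and was at 0.55 in the female and 0.59 in the male pool. Gabre encodes the epsilon subunit, in the same cluster on chromosome X. It was not well above background in the female pool, at -7.53, and just above it in the male pool, at -7.21. The bound was 1.245-fold higher in the male pool, which is the difference of the measured levels on 1 dim spot. The technical SD of that spot, 0.13 log2, is not in the bound, so it is no firm minimum. Gabra6, a subunit of cerebellar granule cells, Gabrp, a subunit of tissues outside the brain, and Gabrr1, Gabrr2 and Gabrr3, the rho subunits best known from the retina, were not well above background in either pool, and no difference is given for them. The GABA-B genes Gabbr1, which binds GABA, and Gabbr2, which couples to the G protein, differed by 0.015 and -0.013 log2. Gabbr2 was at 3.71 in the female and 3.72 in the male pool, and Gabbr1 at -0.18 in the female and -0.19 in the male pool. The 3 probes of Gabbr1 ran from -0.042 to 0.053 log2.

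The 4 AMPA receptor subunits were all above 0, as were 50% of all genes, with a median of 0.28 log2, beside 0.00012 log2 over all genes. Without the spots in the bands their median was 0.16 log2, and on the brightest probe of each gene it was 0.13 log2 with 3 of 4 above 0. AMPA receptors carry most fast excitatory transmission. Gria1 encodes GluA1, a subunit whose trafficking to synapses is regulated by activity. Its technical SD, 0.013 log2, was the smallest of all members, but it is that of a mean over 10 spots, where most members rested on 1. Its probe A_43_P15761 was spotted 10 times and is listed without a genome position. The level averaged -0.77 in the female and -1.11 in the male pool, a difference of 0.34 ± 0.041 log2 (SD over 10 spots) or 1.27-fold. The 10 spots ran from 0.25 to 0.40, and all 10 were higher in the female pool, inside and outside the bands. Before division by the 75th percentiles of 2943 in the female and 3769 in the male pool, its intensities averaged 1728 in the female and 1742 in the male pool. Of the 1312 probes with repeated spots, 33 or 2.52% were higher in the female pool by at least as much. With spike-in scaling Gria1 differed by 0.26 log2, below the smaller size counted.

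Gria4, which encodes GluA4, a subunit of fast-gating receptors, had a gene mean of 0.08 in the female and -0.28 in the male pool, but its probes disagreed more than those of any other member. The probe with 10 spots, at chr8:1016916-1016975 (rn4, minus strand), was at 1.26 in both pools, a difference of 0.0014 ± 0.14 log2 (SD over 10 spots). One of its spots, in slide row 180 beside a band, stood at 0.34, and the other 9 ran from -0.097 to 0.12. The second probe, at chr8:957385-957444 (rn4, minus strand), had 1 spot inside a band, with levels of -1.10 in the female and -1.83 in the male pool, a difference of 0.73 log2. The gap between both probes was 0.73 log2, beyond the 95th percentile, 0.52 log2, of the 2633 genes measured on 2 probes. Without the spots in the bands, Gria4 differed by 0.0076 log2.

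Gria3, on chromosome X, encodes GluA3 and differed in sign between probes. Its probe at chrX:3452571-3452630 (rn4, minus strand) was at 0.79 in the female and 0.86 in the male pool, a difference of -0.067 log2. Its probe at chrX:3459714-3459773 was at -2.34 in the female and -2.62 in the male pool, a difference of 0.28 log2. Gria2, which encodes GluA2, the subunit that makes AMPA receptors impermeable to calcium, had levels of -2.39 in the female and -2.61 in the male pool. Its probes differed by 0.17 and 0.26 log2, both from spots outside the bands. The probes of Gria1, Gria4 and Gria3 are given here because the AMPA differences turn on them. They are written as the scanner files list them, and the longest run of bases that the probes of 1 of these genes share was 6.
Gria1 A_43_P15761: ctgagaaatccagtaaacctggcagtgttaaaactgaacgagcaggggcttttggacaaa
Gria4 A_42_P736258: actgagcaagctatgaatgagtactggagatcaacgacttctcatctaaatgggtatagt
Gria4 A_44_P323349: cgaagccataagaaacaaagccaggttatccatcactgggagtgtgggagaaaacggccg
Gria3 A_43_P10280: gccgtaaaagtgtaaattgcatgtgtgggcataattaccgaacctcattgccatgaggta
Gria3 A_44_P449764: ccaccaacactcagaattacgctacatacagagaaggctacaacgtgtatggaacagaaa

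**Figure D2:**
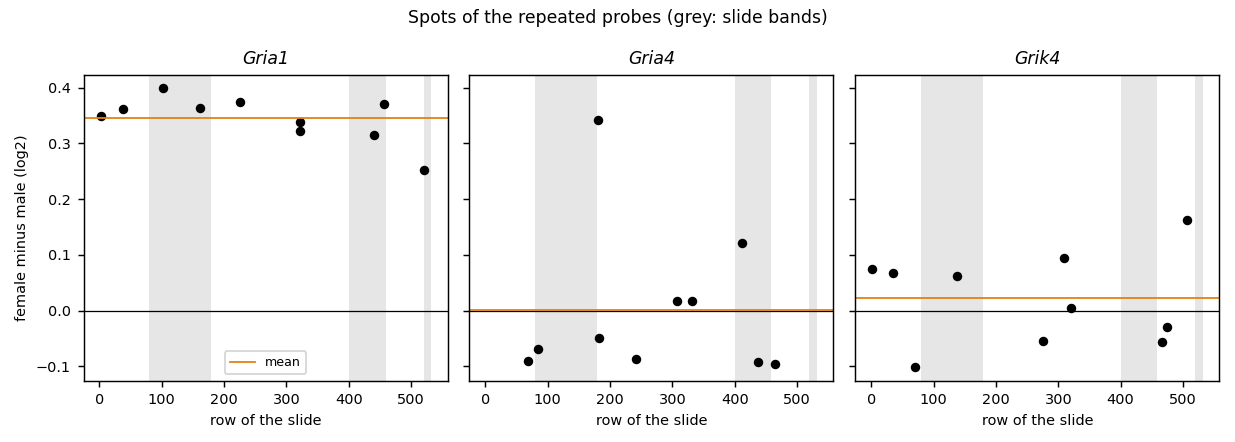
Difference, female minus male in log2, of each spot of the probes of Gria1, Gria4 and Grik4 that were spotted 10 times, by row of the slide, with the mean as a line and the slide bands in grey. All 10 spots of Gria1 lie between 0.25 and 0.40, while the spots of the other genes scatter around 0.

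Among the kainate receptor subunits all 5 genes were above 0, beside 50% of all genes, but 2 of 5 were with spike-in scaling. On the brightest probe of each gene, and likewise with quantile or median scaling, 4 of 5 were. The highest was at 0.15 log2, and 0 reached 0.32 log2, beside 6.17% of all genes higher and 3.06% lower by that size. Grik2 and Grik3, which encode subunits that form channels on their own, were at -2.45 and -5.59 in the female and at -2.60 and -5.69 in the male pool, differences of 0.15 and 0.11 log2. Grik4, which encodes a high-affinity partner subunit, was at -2.50 in the female and -2.53 in the male pool on 10 spots of 1 probe and differed by 0.023 ± 0.083 log2 (SD over 10 spots), with 6 spots above 0. Grik5, the other such partner, was at 2.67 in the female and 2.60 in the male pool.

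Grik1, which encodes GluK1, differed in sign between probes, both outside the bands. The probe at chr11:27722939-27722998 (rn4, minus strand) was at -1.82 in the female and -2.06 in the male pool, a difference of 0.24 log2. The probe at chr11:27704155-27704214 was at -1.72 in the female and -1.56 in the male pool, a difference of -0.15 log2. The technical SD of a spot at that level was 0.050, and the files list the probes under different transcripts of the gene. They are given here as the clearest case of opposite signs, in that order, and share no run of over 5 bases.
Grik1 A_64_P071775: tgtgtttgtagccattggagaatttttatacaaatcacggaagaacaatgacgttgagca
Grik1 A_64_P083818: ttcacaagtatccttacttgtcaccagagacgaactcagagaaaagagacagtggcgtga

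Of the delta receptors, which bind cerebellins at synapses rather than acting as typical glutamate-gated channels, Grid1 (band) was at -4.59 in the female and -4.60 in the male pool.

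The NMDA receptor subunits held the largest differences of both directions. NMDA receptors need the obligatory subunit encoded by Grin1 and contain Grin2 or Grin3 partners, which set their kinetics and magnesium block. Grin2a (band), which encodes GluN2A, the partner that prevails in the mature forebrain, was at -2.65 in the female and -3.24 in the male pool. The difference was 0.59 log2 with a technical SD of 0.20, or 1.5-fold. With spike-in scaling it was 0.50 log2. Grin2b (band), which encodes GluN2B, the partner that prevails early in development, was at -3.68 in the female and -3.96 in the male pool, a difference of 0.28 log2 with a technical SD of 0.20.

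Grin2d, which encodes GluN2D, a slowly deactivating partner found mainly in the diencephalon and brain stem, was lowest of all members and was picked for that value. It was at 4.92 in the female and 5.18 in the male pool, a difference of -0.26 log2 with a technical SD of 0.041, or 1.19-fold higher in the male pool. Its 1 spot lay outside the bands. Of the 2336 genes with a mean level of at least 2, the central 95% ran from -0.19 to 0.28 log2, and Grin2d lay below that range. Its probe had a GC content of 78.3%, the highest among the measured probes of the set, whose median was 45%. The 427 probes of all genes with a GC content of at least 60% had a median difference of 0.043 log2. With spike-in scaling Grin2d differed by -0.34 log2, past the smaller size counted.

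Grin1 was lower in the female pool on both of its probes. The probe outside the bands was at -2.88 in the female and -2.78 in the male pool, a difference of -0.11 log2 with a technical SD of 0.13. The probe inside a band differed by -0.24 log2 with a technical SD of 0.20, and the gene mean lay within 2 technical SD. Grin3a, which encodes GluN3A, a subunit that lowers calcium permeability, was at -1.13 in the female and -1.36 in the male pool. Its adjacent probes gave the same difference, 0.22 log2 each, both outside the bands. Grin2c (band) was at 1.62 in both pools and Grin3b at -3.13 in the female and -3.16 in the male pool, differences of -0.0076 and 0.030 log2. The probe behind the largest difference on the male side is given here.
Grin2d A_64_P118192, at chr1:96309508-96309567 (rn4, minus strand): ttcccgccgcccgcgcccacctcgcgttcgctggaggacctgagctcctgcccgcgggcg

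Of the metabotropic glutamate receptors 7 of 8 genes were above 0, beside 50% of all genes, but 3 of 8 were with spike-in scaling. Their median was 0.076 log2. Past 0.32 log2 were 0 of them, beside 6.17% of all genes higher and 3.06% lower, so 0 among so few genes is near those shares. Grm5, a group I receptor coupled to Gq, was at -2.81 in the female and -3.07 in the male pool, a difference of 0.26 log2 with a technical SD of 0.13. Group II receptors couple to Gi and lie mainly before the synapse, and Grm3 is also expressed by glia. Grm2 was at 0.47 in the female and 0.40 in the male pool, and Grm3 at -2.84 in the female and -3.01 in the male pool, differences of 0.069 and 0.18 log2. Of the group III receptors, also coupled to Gi, Grm4 was at 2.08 in the female and 2.01 in the male pool and Grm7 (band) at -3.55 in the female and -3.64 in the male pool. Grm6, the receptor of retinal ON bipolar cells, was at -4.03 in the female and -4.01 in the male pool, and Grm8 at -1.31 in the female and -1.33 in the male pool. The probes of Grm4 gave 0.027 and 0.12 log2 and are not independent, since they share 15 bases, shown in capitals.
Grm4 A_64_P163070: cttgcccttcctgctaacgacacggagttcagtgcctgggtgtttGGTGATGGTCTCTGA
Grm4 A_43_P15406: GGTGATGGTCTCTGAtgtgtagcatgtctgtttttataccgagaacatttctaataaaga

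**Figure D3:**
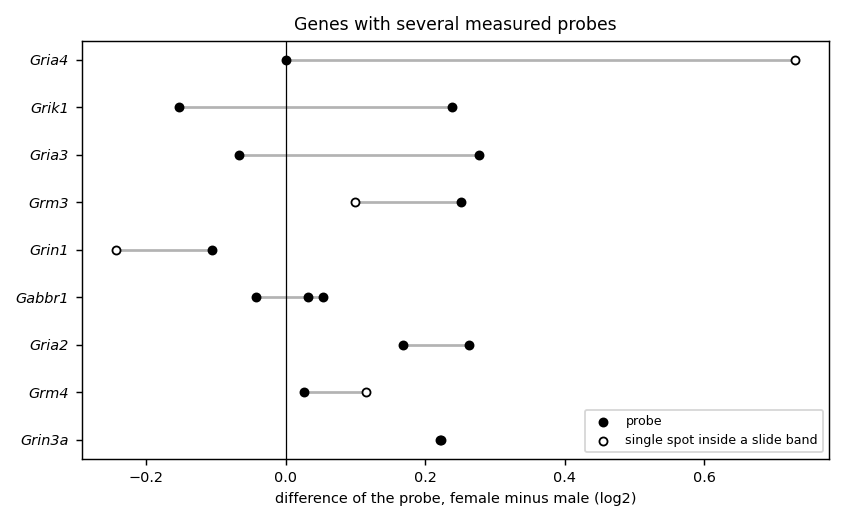
Difference, female minus male in log2, of each probe of 9 genes with several measured probes, ordered by the gap between probes, with open circles for probes on 1 spot inside a slide band. The gap is 0.73 log2 for Gria4 and 0.39 for Grik1, and under 0.001 for Grin3a, and the probes of Grik1, Gria3 and Gabbr1 lie on both sides of 0.

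Of the 11 genes with several measured probes, 4 had probes of different sign, among them Gabbr1, Gria3 and Grik1. Over all genes with 2 measured probes, 40.1% had probes of different sign and the median gap was 0.12 log2.

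**Figure D4:**
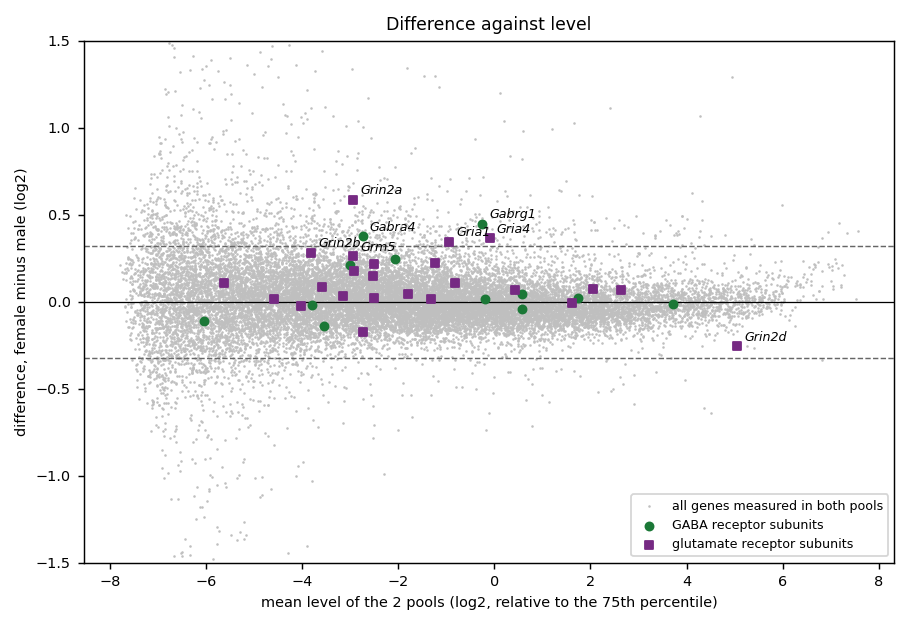
Difference, female minus male in log2, against the mean level of both pools, for all 20664 genes measured in both pools (grey) and 36 GABA (circles) and glutamate (squares) receptor subunits, with dashed lines at 0.32 log2. Grin2d, at -0.26 log2, lies lowest of the plotted members, and 59 genes lie outside the plotted range.

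Differences of all genes varied with their level, so the members were also set beside genes of like level. Of the 11 members with a mean level from -3 to -2, the median was 0.22 log2, beside 0.019 log2 for the 2304 genes there. Of the 7 members from -1 to 0, the median was 0.10 log2, beside -0.014 log2 for 2060 genes. The 4 members at 2 or more had a median of 0.026 log2, beside -0.011 log2. In the dimmest ranges the members lay below other genes, with 0.016 log2 for 3 members from -6 to -4, beside 0.026 log2, and -0.11 log2 for 1 member under -6, beside 0.034 log2. Over the 41 members the difference had a Pearson correlation of -0.18 with the mean level, a description of genes that share 2 arrays.

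Of 25 listed scaffold, auxiliary and trafficking proteins of GABA receptors, 23 were on the array by name and measured, with a median of 0.041 log2. At 0.32 log2, 3 or 13.0% were higher in the female pool and 0 lower, beside 6.17% of all genes higher and 3.06% lower. The 3 were Kctd16 (band) and Kctd12, auxiliary subunits of GABA-B receptors, with 0.46 and 0.43 log2, and Nsf, an ATPase of membrane fusion, with 0.37 log2. Kctd16 was at -2.22 in the female and -2.68 in the male pool, Kctd12 at -3.99 in the female and -4.43 in the male pool, and Nsf at 0.36 in the female and -0.01 in the male pool. The lowest were the transport adaptor gene Trak1, at -0.74 in the female and -0.46 in the male pool, Mdga1 (band), at -4.77 in the female and -4.62 in the male pool, and Plcl2, at -1.42 in the female and -1.27 in the male pool. Of 49 listed proteins of glutamate receptors 43 were measured, with a median of 0.039 log2, 2 or 4.65% higher by at least 0.32 log2, a smaller share than the 6.17% of all genes, and 0 lower. These were the AMPA receptor auxiliary genes Cacng4, at -5.83 in the female and -6.32 in the male pool, and Shisa6, at -5.50 in the female and -5.90 in the male pool. Next was the scaffold gene Dlgap1, at -3.93 in the female and -4.12 in the male pool. Among the lowest was the AMPA auxiliary gene Gsg1l, at -0.27 in the female and -0.12 in the male pool. Pick1, which binds GluA2, was at -1.68 in the female and -1.54 in the male pool over 10 spots.

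Marker lists of other cells and regions differed between the pools to unlike extents, where 50% of all genes were above 0. Medians were 0.023 log2 for striatal, 0.0096 for cortical and hippocampal, and 0.0066 for cerebellar and hindbrain markers. They were -0.036 log2 for endothelial and 0.053 for microglial markers. Of 8 neuronal markers 6 were above 0, with a median of 0.062 log2, and their summed level, in percent of the 75th percentile, was 5220 in the female and 5100 in the male pool. Of 4 thalamic markers 3 were above 0, with a median of 0.15 log2 and a sum of 595 in the female and 551 in the male pool. The 8 meningeal and fibroblast markers were all above 0, at a median of 1.02 log2 and a sum of 355 in the female and 175 in the male pool. The 5 measured blood markers were all below 0, with a sum of 1060 in the female and 1330 in the male pool. Of 5 choroid plexus markers 3 were above 0, with a sum of 240 in the female and 133 in the male pool. Most of that sum came from Ttr, on 1 spot in a band, at 1.09 in the female and 0.108 in the male pool. Clic6 and Folr1 were below 0. Of 6 astrocyte markers 1 was above 0, with a median of -0.072 log2, and of 7 oligodendrocyte markers 2 were, with -0.058 log2. Of 3 measured pituitary markers 0 were above 0, with a sum of 171 in the female and 287 in the male pool, and Gh1 and Prl were not measured. The part of any of these in the receptor differences was not tested.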

How the data were processed

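The scanner files and a value table of the 2 arrays were used. Per the file headers, the deposited intensity of each spot was made by Agilent Feature Extraction 10.7.3.1 by background subtraction and correction of spatial trends, with probe coordinates on rn4. The submitters' processing notes name version 9.1, and which of them made the values is not settled. The authors' value table equalled the processed intensity over the 75th percentile of its array, times 100, on a linear scale without centring. Its medians were 29.5 in the female and 29.0 in the male pool. The other deposited columns used were flags set by Feature Extraction. No read depth applies to arrays, and their number limits the precision.

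From these, log2 intensity minus the 75th percentile of the non-control spots was computed. Outlier spots of either array were dropped, 292 being marked in the female and 286 in the male pool and 0 on a receptor probe. Levels were averaged over spots and probes, and a probe counted as measured if in each pool more than 50% of its spots were well above background. A gene above background in 1 pool only has a bound against the higher of the dim probe's level and the lowest level well above background. That bound leaves out technical error. The technical SD came from probes with at least 5 spots in 4 level groups, inside and outside the bands, or from the probe's own 10 spots. For a probe or gene with several spots it is the SD of their mean, a standard error. Counts used sizes of 0.32 log2, 1.5-fold and 2-fold. Genes were named as in the files. The accessions of 58 of 59 probes matched the same symbol in a gene table of GRCr8.

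The members, lists and slide bands were chosen with earlier results of these data known. Values were given for members past 0.32 log2, the 2 largest of each class, repeated probes, probes of different sign and undetected members, and for the 3 largest per direction of each list of associated proteins. Other members were added, and 5 members and 1 associated gene are not reported singly here but stay in the counts and medians. The calculation was tested on simulated data. Python 3.11.15, pandas 2.3.3 and limma 3.58.1 were used. Alternatives were normexp, quantile, spike-in, median and loess scaling, the value table, other filters, the brightest probe, the bands left out and names from the gene table. For normexp, 2 spots of the male array and 0 of the female array with a background far above the spot were left out.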

Additional observations from a re-analysis of the deposited data

How the results depend on the processing

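No paired analysis was possible because each sex had 1 array, and for the same reason no replicate could be left out. The 41 measured members were 31 without the slide bands. The count of members higher by at least 0.32 log2 was 5 and stayed at 4 or 5 except with spike-in scaling, which gave 2, Gabrg1 and Grin2a, and without the slide bands, which gave 2, Gabra4 and Gria1. The count lower by at least 0.32 log2 was 0, but 1 with spike-in scaling, Grin2d, and 1 with no filter on dim probes, Gabrr1, which also made the count at least 1.5-fold lower 1. The single member at least 1.5-fold higher, Grin2a, gave a count of 0 with normexp, quantile, spike-in and median scaling, without the bands, and with loess scaling, which was chosen after seeing the data. The median of the members, 0.071 log2, was -0.014 with spike-in scaling, which moved all genes by -0.085 log2. Of 505 gene values under the 12 alternatives or from single probes, 451 moved by less than their technical SD, 54 by more, and 0 members past 0.32 log2 changed sign. Many of the 451 could not have moved, so this tally is no measure of stability. The value table rests on the same intensities and scaling, and 0 receptor spots were outliers. The filters on dim probes and the gene-table names kept the same probes. The brightest probe changes nothing for a gene with 1 probe. Gria4 differed by 0.0014 log2 on its brightest probe. The technical SD of a spot was 0.13 log2 in the dimmest of 4 level groups outside the bands and 0.20 inside, against 0.041 and 0.072 in the brightest.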

Other observations

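A probe outside the naming rule, listed under a transcript identifier and described in the files as the kainate subunit GluR6, was at -2.17 in the female and -2.35 in the male pool, a difference of 0.18 log2 from 1 spot inside a band. Grik2, the gene of GluR6, differed by 0.15 log2 on its own probe outside the bands.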
